A study of Mus musculus with 401 samples.

Results

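The genes described here are Mtor, Rptor, Rictor, Tsc1, Tsc2, Rheb, Rps6kb1, Eif4ebp1 and Deptor, the core of the mTOR pathway. These 9 genes were chosen by symbol, not by their values, and were found through their Ensembl identifiers among the 41092 genes of the first set of libraries and the 42349 genes of the second. All 9 had enough counts to be tested in each of the 22 comparisons. RamDA-seq, which copies total RNA along whole transcripts with or without a poly(A) tail, was run on single germinal vesicle oocytes of fully grown follicles and on the pool of cumulus cells taken from around each oocyte.

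All mice were B6D2F1 (C57BL/6 x DBA/2) females. In the first set, Young mice (2 months), Middle mice (9 months) and Old mice (14 months) had an AL (ad libitum) diet, and CR mice were placed on calorie restriction as adults and sampled at 9 months. The second set held 2mo, 4mo, 9mo and 14mo mice, aged 2, 4, 9 and 14 months, and 2moNoH mice, aged 2 months and not injected for hyperovulation. Every other group, CR included, had been injected with eCG or CARD HyperOva to make more follicles grow, and the labels do not give which agent a mouse had. The CR mice were housed singly and fed once a day, so diet, feeding schedule and housing cannot be told apart. Of 401 deposited libraries, 399 were used. They comprised, for oocytes and cumulus pools respectively, 16 and 15 libraries of Young mice (2 mouse labels), 14 and 15 of Middle mice (4), 16 and 16 of Old mice (2), 27 and 25 of CR mice (3), 24 and 24 of 2mo mice (5), 39 and 40 of 4mo mice (8), 16 and 16 of 9mo mice (4), 16 and 16 of 14mo mice (5), and 32 and 32 of 2moNoH mice (8). The mouse label Old1_2 appears to join more than 1 animal. Oocytes of 1 mouse share that mouse, so a p-value taken over libraries measures the spread between libraries, and each called gene is therefore also given from counts summed per mouse.

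Total counts ran from 559305 to 4536690 per oocyte and from 510029 to 2501005 per cumulus pool, and the CR oocytes (2752043 to 4536690) were all deeper than the Middle oocytes (1903858 to 2624876). Levels are given as CPM, each gene's counts scaled to a common library total, after TMM scaling within a set and cell type, and, where genes are compared with each other, as CPM per kilobase of gene length. All 10 oocyte markers and all 10 cumulus markers were found. The summed oocyte markers lay at a median of 0.0315% or less of their oocyte level in the cumulus pools of each group. The summed cumulus markers of single oocytes reached 11% of their cumulus level in Young, 18.4% in Middle, 35.6% in Old and 12.5% in CR oocytes, with medians of 1.31%, 2.26%, 4.39% and 1.77%, whereas the group means of the second set were 0.794% to 1.09%. Each share is relative to the median over the libraries of the marker's own cell type in that set. The 4 theca or luteal markers together had medians of 2.93, 5.15, 10.2 and 5.48 CPM in Young, Middle, Old and CR oocytes, with highest values of 7.07, 1080, 497 and 45.8 CPM. In a pool of cells, fewer cells that express a gene and less of its RNA per cell cannot be told apart.

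The kinase mTOR, encoded by Mtor, works in a pair of complexes that join nutrient and growth factor signals to cell growth. The first complex, built on the scaffold RAPTOR (Rptor), phosphorylates the ribosomal S6 kinase (Rps6kb1) and the translation repressor 4E-BP1 (Eif4ebp1). The second, built on RICTOR (Rictor), phosphorylates AKT and related kinases. The TSC1 and TSC2 proteins (Tsc1, Tsc2) form a complex that switches off the small GTPase RHEB (Rheb), the direct activator of the first complex, and DEPTOR (Deptor) binds and restrains mTOR in both. In the ovary, this pathway is known for its part in waking primordial follicles and in the growth of oocytes and of the granulosa cells around them.

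On GRCm38, Mtor (ENSMUSG00000028991) lies at chr4:148448611-148557683 and Rheb (ENSMUSG00000028945) at chr5:24802823-24842624. The scaffolds are Rptor (ENSMUSG00000025583) at chr11:119602905-119899576 and Rictor (ENSMUSG00000050310) at chr15:6708379-6800401. The TSC genes are Tsc1 (ENSMUSG00000026812) at chr2:28641228-28691167 and Tsc2 (ENSMUSG00000002496) at chr17:24595816-24632630. The targets are Rps6kb1 (ENSMUSG00000020516) at chr11:86498871-86544805 and Eif4ebp1 (ENSMUSG00000031490) at chr8:27260329-27276674, and the inhibitor Deptor (ENSMUSG00000022419) lies at chr15:55112317-55259271. Tsc2, Rheb and Rps6kb1 are on the minus strand. Exons on the opposite strand overlapped 693 bases of Tsc2 (Pkd1), 303 bases of Deptor (Gm9920), 155 bases of Rps6kb1 (Rnft1) and 84 bases of Rptor (Rptoros). The strand setting of the counting is not given in the sources used here, so reads in these stretches cannot be told apart between the partners. Values that were not whole are taken here to come from sharing reads that map to several places. In the first set, Deptor had such a value in 53.4% of the libraries that held a count of it. The share of libraries was 43.2% for Rptor and for Tsc2 and at least 25.2% for Rps6kb1 and for Eif4ebp1. It was at most 1.37% for Mtor, Rictor, Tsc1 and Rheb. These are shares of libraries, and the share of reads involved was not measured. The levels of Deptor, Rptor, Tsc2, Rps6kb1 and Eif4ebp1 are less certain to an extent that is not known.

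The promoters of the scaffold genes Rictor and Rptor are printed here, since these genes differed between the cell types in opposite directions. RefSeq promoter windows on GRCm38.p6, from 250 bases before to 50 after the gene start, were found for 7 of the 9 genes, all but Eif4ebp1 and Deptor. Capitals mark a GC box (GGGCGG, either strand), the single motif of those searched that either window held.
Rictor: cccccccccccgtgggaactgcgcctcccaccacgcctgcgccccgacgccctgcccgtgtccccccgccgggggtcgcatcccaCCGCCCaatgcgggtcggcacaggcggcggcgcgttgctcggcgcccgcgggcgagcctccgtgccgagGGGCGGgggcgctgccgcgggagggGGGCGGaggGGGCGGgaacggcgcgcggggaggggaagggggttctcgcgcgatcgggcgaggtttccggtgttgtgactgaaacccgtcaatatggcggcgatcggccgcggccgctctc
Rptor: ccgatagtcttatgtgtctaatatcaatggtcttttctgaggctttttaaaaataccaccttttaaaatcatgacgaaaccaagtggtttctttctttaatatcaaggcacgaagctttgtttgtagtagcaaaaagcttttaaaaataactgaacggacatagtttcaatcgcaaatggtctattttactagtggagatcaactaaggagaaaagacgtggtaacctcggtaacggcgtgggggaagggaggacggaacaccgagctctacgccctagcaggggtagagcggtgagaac
The Rictor window (chr15:6708131-6708430, plus strand) is 78.3% G or C with 47 CpG sites and 4 GC boxes, and the Rptor window (chr11:119602655-119602954, plus strand) is 41.7% G or C with 13 CpG sites and none of the motifs. Over 32851 promoters the medians were 52.7% G or C and 7 CpG sites, so both windows hold more CpG sites than the median. A GC box occurred in 35.7% of all promoters, an E-box (CACGTG) in 7.15%, a forkhead motif (GTAAACA) in 3.65%, an ETS motif (CCGGAAG) in 8.86% and a TATA motif (TATAAA) in 13.6%. The Mtor window held 2 GC boxes and 1 ETS motif, that of Rheb 1 E-box and 1 GC box, that of Tsc2 2 ETS motifs, and those of Tsc1 and Rps6kb1 none. These matches describe the windows and name no bound factor.

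To compare the genes with each other, levels were taken per kilobase. In Middle oocytes, Rictor was highest at 33.1 ± 5.98 CPM per kilobase (SD, n = 14), followed by Deptor at 22.6 ± 4.42, Mtor at 12.5 ± 3.15, Tsc1 at 9.43 ± 1.89, Rheb at 7.96 ± 1.09 and Tsc2 at 6.95 ± 1.88. The S6 kinase gene Rps6kb1 (2.56 ± 0.493), Rptor (1.8 ± 0.787) and Eif4ebp1 (1.13 ± 1) came last. Neighbours in this order were parted in all 14 oocytes only for Rictor over Deptor, Deptor over Mtor and Tsc2 over Rps6kb1. Mtor exceeded Tsc1 in 12 of 14, Tsc1 exceeded Rheb in 11, Rheb exceeded Tsc2 in 10, Rps6kb1 exceeded Rptor in 11 and Rptor exceeded Eif4ebp1 in 12. The place of Rictor over Deptor also rests on the gene length behind the deposited values (9311 bases for Rictor). With the exon length of a later annotation (16930 bases), a choice made after seeing the data, the median Rictor to Deptor ratio of the oocyte groups fell from 1.34 to 1.56 down to 0.737 to 0.858, and the order turned.

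In Middle cumulus pools the same genes stood in another order. Tsc2 (14.6 ± 2.52 CPM per kilobase, n = 15) and Eif4ebp1 (13.3 ± 3.45) led, and Tsc2 exceeded Eif4ebp1 in just 7 of 15 pools. Rheb (11.7 ± 2.98), Mtor (10.2 ± 2.88), Rictor (10.1 ± 3), Rptor (9.54 ± 1.87) and Rps6kb1 (7.28 ± 1.68) followed, and neighbours from Eif4ebp1 to Tsc1 stood in this order in 7 to 11 of 15 pools. Tsc1 (5.32 ± 1.24) and Deptor (3.05 ± 1.84) were lowest, and Tsc1 exceeded Deptor in 13 of 15. With the later lengths, Tsc2 (9620 instead of 6018 bases) was at 9.16 ± 1.58 and Rictor at 5.56 ± 1.65 CPM per kilobase, so that Eif4ebp1 led and Tsc2 came after Rheb, Mtor and Rptor. With either lengths, the genes spanned a wider range in oocytes than in cumulus pools.

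**Figure D1:**
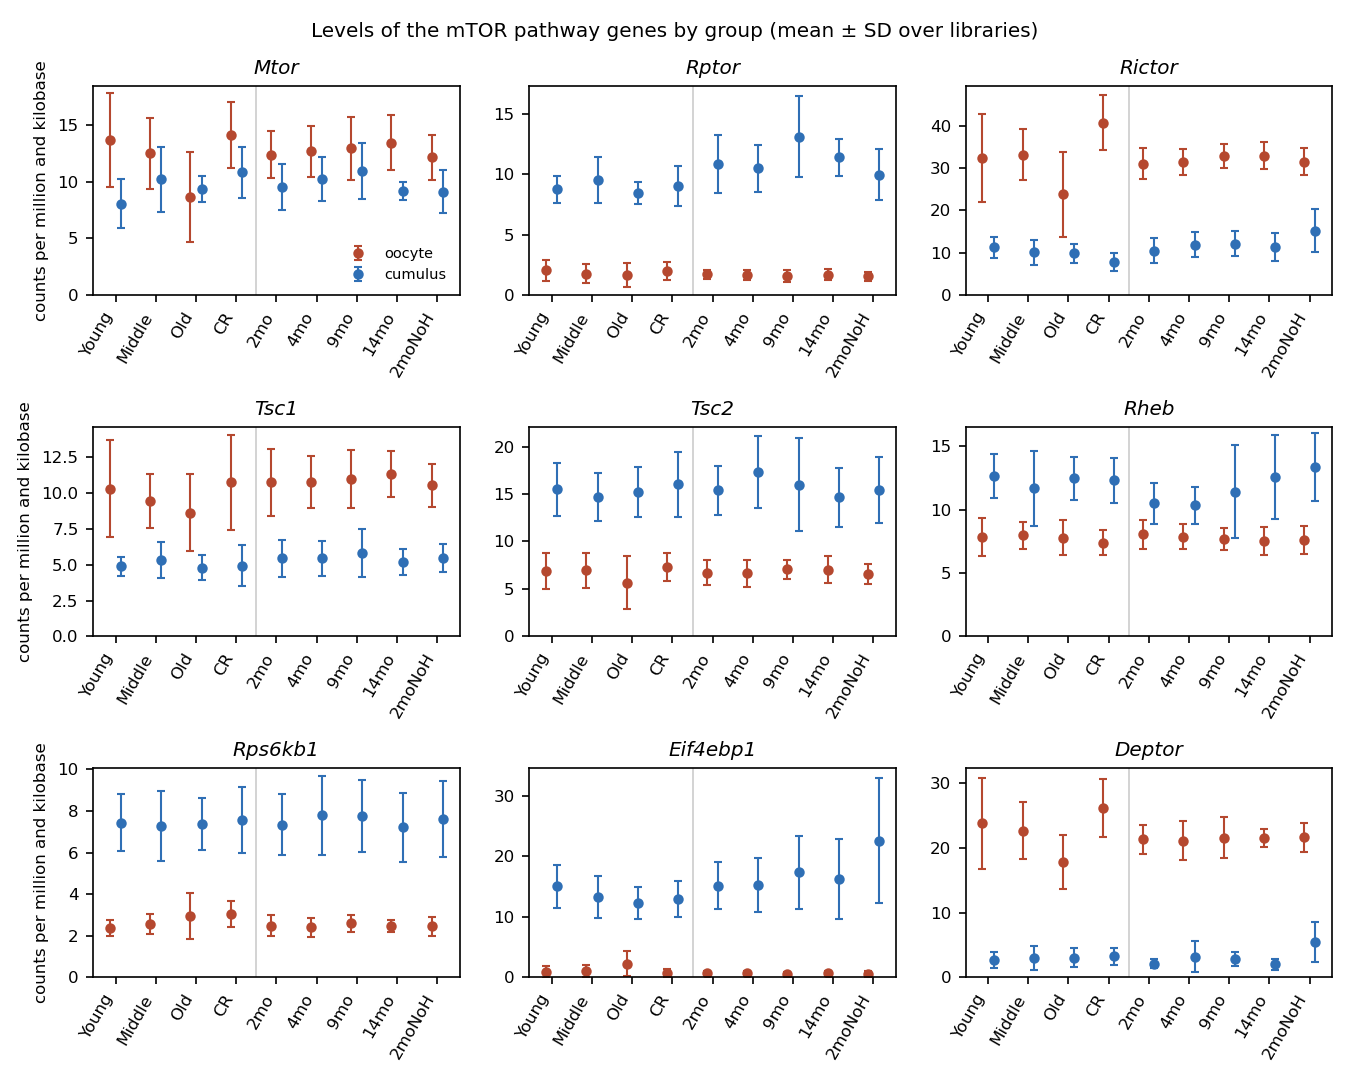
Level of each gene in CPM per kilobase of gene length in the 9 oocyte groups and the 9 cumulus groups, as group means with SD over libraries on axes from 0. Rictor, Deptor and Tsc1 stand higher in oocytes, and Rptor, Tsc2, Rheb, Rps6kb1 and Eif4ebp1 in cumulus pools, in every group shown, and Mtor stands higher in oocytes in every group but Old. Levels were scaled within each cell type, and in the joint fit Rheb was not called between the cell types (−0.00508 and −0.0572).

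Across the 9 oocyte groups, mean levels ran from 8.67 (Old) to 14.11 (CR) CPM per kilobase for Mtor, from 23.83 (Old) to 40.7 (CR) for Rictor and from 17.79 (Old) to 26.06 (CR) for Deptor. They ran from 1.574 to 2.085 for Rptor, from 8.625 to 11.3 for Tsc1, from 5.67 to 7.288 for Tsc2, from 7.395 to 8.036 for Rheb and from 2.383 to 3.048 for Rps6kb1. In proportion to its level, Rheb had the narrowest spread of group means in oocytes. In the 9 cumulus groups they ran from 8.052 to 10.91 for Mtor, from 8.453 to 13.13 for Rptor, from 7.914 to 15.24 for Rictor, from 4.791 to 5.816 for Tsc1, from 14.64 to 17.32 for Tsc2, from 10.34 to 13.33 for Rheb, from 7.213 to 7.791 for Rps6kb1, from 12.24 to 22.61 for Eif4ebp1 and from 2.035 to 5.467 for Deptor. Eif4ebp1 was near the floor in oocytes, at 0.4994 to 2.255 CPM per kilobase, with median counts of 2 to 8.5 per group and no count at all in 11 of 200 oocytes.

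Ratios of 3 pairs of partners were taken within each library. The Rictor to Rptor ratio of levels per kilobase had group medians of 14.7 to 21.9 in oocytes and 0.941 to 1.46 in cumulus pools, or 8.08 to 12 and 0.518 to 0.803 with the later gene lengths. In Middle mice the ratio had a lowest, median and highest value of 7.4, 21.5 and 34.8 over oocytes and of 0.652, 0.983 and 1.69 over cumulus pools, which did not overlap. In Young mice the lowest oocyte ratio, 1.65, fell within the cumulus range of 0.921 to 1.98. The Tsc1 to Tsc2 ratio had medians of 1.38 to 1.66 in oocytes and 0.294 to 0.376 in cumulus pools, or 2.21 to 2.65 and 0.47 to 0.601 with the later lengths. The ratio of Deptor, the inhibitor, to Mtor had medians of 1.64 to 2.42 in oocytes and 0.197 to 0.626 in cumulus pools.

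**Figure D2:**
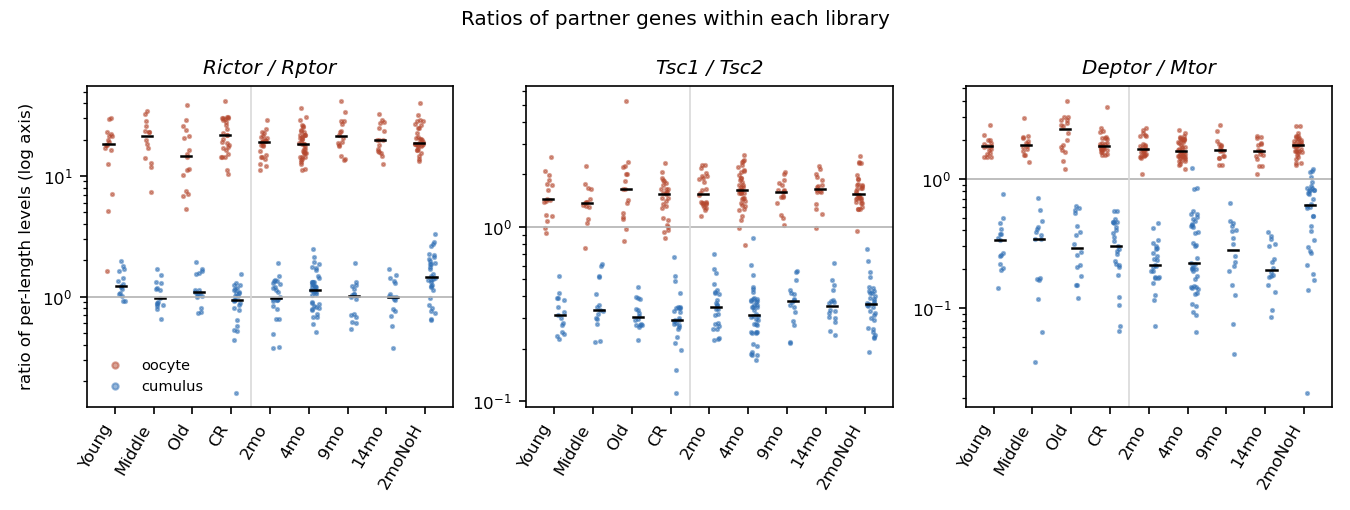
Ratios of levels per kilobase (Rictor to Rptor, Tsc1 to Tsc2, Deptor to Mtor) in single libraries of each group, on a log axis, with group medians as bars. The oocyte medians (14.7 to 21.9, 1.38 to 1.66 and 1.64 to 2.42) lie above the cumulus medians (0.941 to 1.46, 0.294 to 0.376 and 0.197 to 0.626) for all 3 ratios.

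The cell types were compared within the Middle and the 2mo mice, in a joint fit of oocytes and cumulus pools whose scaling differs from that of the CPM levels given per cell type. Values are log2 fold changes with adjusted p-values of edgeR's quasi-likelihood F test with Benjamini-Hochberg adjustment over all genes tested, and a gene is called below 0.05. Of the 9 genes, 4 were higher and 4 lower in oocytes in each comparison (88.9%), against 84.6% of all genes in Middle and 88.4% in 2mo mice, so the count was near the background. With counts summed per mouse, 7 of 9 were called in Middle and 8 of 9 in 2mo mice, against 75.6% and 84.8% of all genes.

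Deptor differed most upward. It measured 101, 210.8 and 240.7 CPM (lowest, median and highest) in Middle oocytes and 3.219, 27.75 and 64.02 in Middle cumulus pools, without overlap. Its log2 difference, oocyte over cumulus, was 3.43 (SE 0.236, edgeR adjusted p = 2.61e-15) in Middle and 3.62 (SE 0.0879, 7.48e-43) in 2mo mice. Rictor measured 168.1, 314.8 and 374.2 CPM in Middle oocytes and 53.55, 86.85 and 151.8 in cumulus pools, again without overlap, and was higher by 2.26 (SE 0.137, edgeR adjusted p = 8.78e-17) and 1.88 (SE 0.09, 9.48e-28). Tsc1 was higher by 1.37 (SE 0.121) in Middle and 1.31 (SE 0.0872) in 2mo mice, and Mtor by 0.842 (SE 0.147, edgeR adjusted p = 3.62e-06) and 0.705 (SE 0.0786, 3.62e-12). In CPM scaled per cell type, Mtor measured 62.67, 129.1 and 176.1 in Middle oocytes and 67.29, 98.92 and 178.3 in cumulus pools. These ranges overlapped almost fully. Under other scaling and processing, the Mtor difference ran from 0.608 to 0.961 in Middle and from 0.505 to 0.954 in 2mo mice. These 4 genes, the kinase with its second scaffold, its inhibitor and a TSC subunit, were thus the ones called higher in oocytes.

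The remaining called genes were lower in oocytes. Rptor measured 12.93, 21.93 and 55.07 CPM in Middle oocytes and 88.35, 123.8 and 192.6 in cumulus pools, which did not overlap, and its log2 difference was −1.84 (SE 0.169, edgeR adjusted p = 4.82e-12) in Middle and −2.29 (SE 0.0908, 7.54e-32) in 2mo mice. Eif4ebp1, which encodes the repressor of cap-dependent translation, measured 0, 1.6 and 7.895 CPM in Middle oocytes and 15.69, 30.86 and 44.39 in cumulus pools, with differences of −2.96 (SE 0.288) and −3.93 (SE 0.146). Rps6kb1 was lower by −0.96 (SE 0.127) and −1.24 (SE 0.0868) on the log2 scale. The TSC subunit gene Tsc2 was lower by −0.518 (SE 0.128, edgeR adjusted p = 0.000427) in Middle mice, a call lost with counts summed per mouse (−0.418, edgeR adjusted p = 0.215), and by −0.866 (SE 0.0781) in 2mo mice. Rheb was not called, at −0.00508 (95% interval −0.238 to 0.228, edgeR adjusted p = 0.969) in Middle and −0.0572 (−0.189 to 0.075, 0.421) in 2mo mice. Its direction in 2mo mice turned with the scaling and processing. Rheb was called lower in oocytes with libraries thinned to equal depth (−0.305, edgeR adjusted p = 0.000299). The same held with a stricter filter on low counts (−0.226, 0.00135) and in DESeq2 (−0.161, adjusted p = 0.0187). It was called higher, at 0.187, after correction for the trend with gene length (edgeR adjusted p = 0.00785).

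Of 63 other genes of the pathway, 30 were higher and 27 lower in Middle oocytes than in cumulus pools (90.5%, against 84.6% of all genes), and 28 and 31 in 2mo mice (93.7%, against 88.4%). Of the 8 complex subunits and assembly factors, 5 were higher and 3 lower in Middle mice. Prr5l, a RICTOR-binding subunit, was at 94.5 ± 21.1 CPM in Middle oocytes and close to 0 in cumulus pools (0.0529 ± 0.205 CPM), and its relative Prr5 was higher by 6.07 and 5.18 on the log2 scale in Middle and 2mo mice. Grb10, an adaptor phosphorylated by mTOR, was higher by 5.37 and 6.88. Lower in oocytes were Prkag2 (−3.92 and −4.61), a subunit of the energy sensor AMPK, and Wdr59 (−3.66 and −4.55), a subunit of the amino acid sensor complex GATOR2.

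Calorie restriction was then asked of the same genes in mice of 9 months. From Middle to CR oocytes, Rictor and Rps6kb1 rose and the other 7 genes were not called. These 2 of 9 (22.2%) stand against 30.0% of all genes tested, and with counts summed per mouse none of the 9 was called, against 8.51% of all genes. With 9 genes, these counts are near the background. With sums per mouse, 1 of the 9 had an unadjusted p below 0.05. The highest theca or luteal marker sum was 1080 CPM in Middle and 45.8 CPM in CR oocytes, and its part in the differences was not tested. The median log2 difference of the 9 genes was 0.182, with 7 above and 2 below 0, and that of all genes was 0.00224, with 50.2% above 0.

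Rictor measured 168.1, 314.8 and 374.2 CPM in Middle oocytes and 197.8, 386.7 and 478.1 in CR oocytes. The groups overlapped, but 18 of 27 CR oocytes were above the whole Middle range and 25 above its median. Its log2 difference, CR over Middle, was 0.3 (SE 0.0922, 95% interval 0.12 to 0.481, edgeR adjusted p = 0.0101). The mouse means were 251 to 333 CPM over 4 Middle mice and 302 to 391 over 3 CR mice, of which 2 lay above the Middle range. Summed per mouse the difference was 0.308 (edgeR adjusted p = 0.219), with a correlation within mice it was 0.288 (limma adjusted p = 0.0399), and thinned to equal depth it was 0.268 (edgeR adjusted p = 0.0167). The call was lost without mouse CR3 (0.259, edgeR adjusted p = 0.122) and after correction for the trend with gene length (0.189, 0.0795).

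Rps6kb1, the S6 kinase gene, measured 15.12, 22.77 and 29.39 CPM in Middle oocytes and 16.43, 26.51 and 41.34 in CR oocytes. The groups overlapped widely, with 6 of 27 CR oocytes above the Middle range and 21 above its median. The log2 difference was 0.256 (SE 0.0939, edgeR adjusted p = 0.0336), and the mouse means were 21 to 24.4 CPM in Middle and 24.4 to 29.9 CPM in CR mice. The call was lost in sums per mouse (0.327, edgeR adjusted p = 0.15), with a correlation within mice (limma adjusted p = 0.0612), in DESeq2 (0.222, adjusted p = 0.0759), with all deposited libraries (0.259, edgeR adjusted p = 0.0569), with the length correction (0.149, edgeR adjusted p = 0.29) and without any of CR1, CR2, Middle2 or Middle4 (edgeR adjusted p = 0.0605 to 0.178).

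Among the genes that were not called, Deptor measured 101, 210.8 and 240.7 CPM in Middle and 132, 236 and 302 CPM in CR oocytes, a log2 difference of 0.207 (SE 0.0935, edgeR adjusted p = 0.0899). Without mouse Middle1 it was 0.28 (edgeR adjusted p = 0.0331). Mtor itself measured 62.67, 129.1 and 176.1 CPM in Middle and 41.73, 148.7 and 183.2 CPM in CR oocytes, ranges that overlapped almost fully, with 22 of 27 CR oocytes above the Middle median and all 3 CR mouse means above the median of the Middle mouse means (124 CPM). The log2 difference was 0.182 (95% interval −0.0567 to 0.42, edgeR adjusted p = 0.277). The TSC genes were at 0.189 (Tsc1, −0.0639 to 0.443) and 0.0737 (Tsc2, −0.131 to 0.278), and Rptor was at 0.159 (−0.165 to 0.484). Rheb was at −0.105 (−0.232 to 0.0211), and passed with the length correction at −0.205 (edgeR adjusted p = 0.0377). Eif4ebp1, at a median of 3.5 counts per Middle and 4 per CR oocyte, was at −0.641 (SE 0.371, edgeR adjusted p = 0.198), and was called with all deposited libraries (−1.46, 0.00902). That fit holds an oocyte library of Middle3, left out elsewhere, that stood closer to cumulus pools. In Middle cumulus pools Eif4ebp1 measured 15.69 to 44.39 CPM. The part of this library in the call was not tested.

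**Figure D3:**
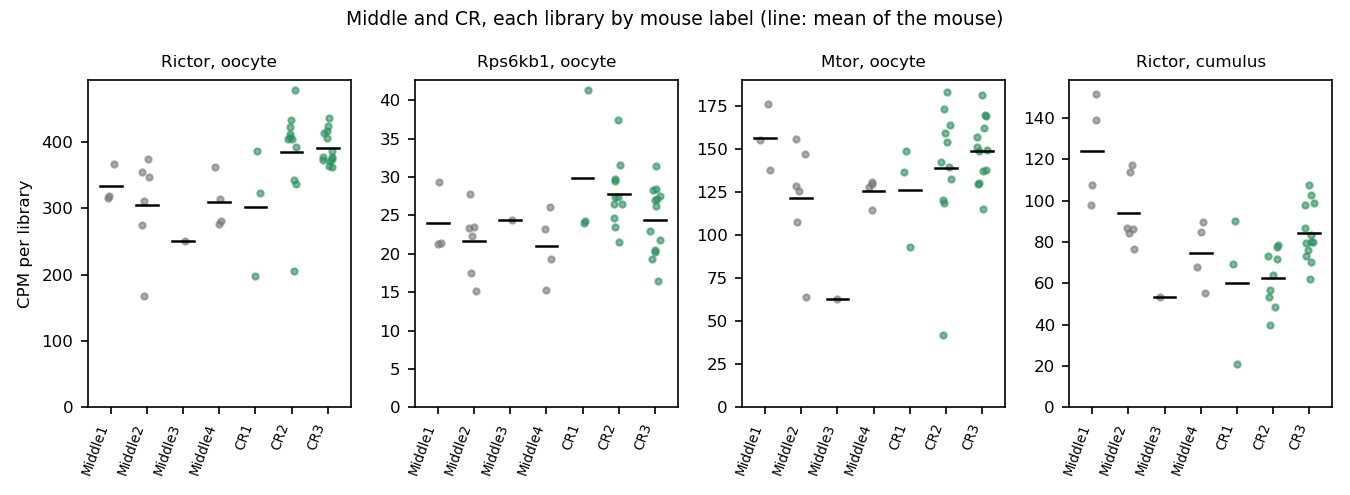
CPM per library (axes from 0) of Rictor, Rps6kb1 and Mtor in Middle and CR oocytes and of Rictor in cumulus pools, split by mouse label, with a line at the mean of each mouse. For Rictor in oocytes, the CR mouse means (302 to 391 CPM) and Middle mouse means (251 to 333 CPM) overlap, and 18 of 27 CR oocytes lie above every Middle oocyte.

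In cumulus pools no gene was called from Middle to CR, against 3.6% of all genes, and 1 had an unadjusted p below 0.05. Rictor came nearest, with 53.55, 86.85 and 151.8 CPM in Middle and 20.78, 76.02 and 107.3 CPM in CR pools. Its log2 difference was −0.354 (SE 0.138, edgeR adjusted p = 0.145), opposite in sign to that in oocytes, and without mouse CR3 it was −0.576 (edgeR adjusted p = 0.0435). Without mouse Middle1 the Rictor difference was −0.161 (edgeR adjusted p = 0.651). The other 8 genes lay between −0.108 and 0.132, with a median over all 9 of 0.0606 beside 0.0354 for all genes. Tested directly, the CR response of oocytes minus that of cumulus pools was called for Rictor alone of the 9 (11.1%, against 12.7% of all genes), at 0.56 (SE 0.169, edgeR adjusted p = 0.0164). With the length correction this call was lost (0.397, edgeR adjusted p = 0.0957) and Rheb was called (−0.399, 0.0214). In sums per mouse none was called (Rictor 0.903, edgeR adjusted p = 0.454), against 0.0979% of all genes. The median of this difference over all genes was −0.134, and 0.2 in sums per mouse. Rheb was at −0.274 (SE 0.118, edgeR adjusted p = 0.119).

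Of the other pathway genes, 12 of the 62 tested were higher and 15 lower in CR than in Middle oocytes (43.5%, against 30.0% of all genes). In sums per mouse 6 were higher and 3 lower (14.5%, against 8.51% of all genes). By role, 1 rose and 3 fell of 8 complex subunits and assembly factors, 6 rose and 7 fell of 29 genes of the amino acid arm, 1 rose and 2 fell of 11 inputs through TSC, RHEB and AMPK, and 4 rose and 3 fell of 14 targets. The folliculin complex that serves amino acid sensing at the lysosome showed both directions. Fnip1 rose from 108 ± 12.4 to 180 ± 21.9 CPM (SD, n = 14 and 27; log2 0.745, edgeR adjusted p = 5.89e-13, 0.00408 in sums per mouse), and its partner Flcn fell from 122 ± 21.4 to 80.7 ± 11.2 CPM (−0.595, edgeR adjusted p = 1.71e-08, 0.00983 in sums per mouse). The AMPK subunit gene Prkab2 rose by 0.901 (edgeR adjusted p = 1.4e-06, 0.0243 in sums per mouse) and Sgk1, a kinase downstream of the second complex, by 0.639 (7.64e-05, 0.0463). The RICTOR partner gene Prr5 changed by −0.677 (edgeR adjusted p = 2.74e-08, 0.0215 in sums per mouse) and Nprl3, of the GATOR1 complex, by −0.653 (0.000111, 0.173).

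In cumulus pools 4.84% were called, against 3.6% of all genes, of which 2 were higher in CR, Tfe3 (0.543), a lysosomal transcription factor, and Sec13 (0.347), and 1 was lower, Fnip1 (−0.84, edgeR adjusted p = 0.00677, 0.533 in sums per mouse). The CR response differed between the cell types for 13 of 63 (20.6%, against 12.7% of all genes), with 4 more positive in oocytes, led by Fnip1 (1.48), Sgk1 (1.15) and Prkab2 (1.09), and 9 more negative, led by Prr5 (−2.01), Sesn2 (−0.954) and Tfe3 (−0.863). Prr5 was near the floor in cumulus pools (1.05 ± 0.724 CPM in Middle), and its change in oocytes was −0.677, so its value of −2.01 is uncertain. None of these 13 differences was called in sums per mouse.

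Age was examined in both sets. From Young to Middle oocytes none of the 9 genes was called (lowest edgeR adjusted p = 0.891, and no unadjusted p below 0.05), against 0.0% of all genes. From Young to Old oocytes Mtor fell and Eif4ebp1 rose, 2 of 9 (22.2%) against 7.39% of all genes. Summed over the 2 mouse labels of each group, none of the 9 was called (3 unadjusted p below 0.05), against 0.0% of all genes. Old oocytes also held the most cumulus marker RNA, with a median of 4.39% of the cumulus level against 1.31% in Young oocytes, and the least oocyte marker RNA, with a median of 79.6% (30.4% to 129%) of the oocyte level. Their theca or luteal markers were at a median of 10.2 CPM, against 2.93 CPM in Young oocytes, and the part of these markers in the differences was not tested.

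Mtor measured 26.88, 147.9 and 182.7 CPM in Young oocytes and 35.73, 71.82 and 158.6 CPM in Old oocytes. The ranges overlapped, while 15 of 16 Old oocytes lay below the Young median. Its log2 difference was −0.67 (SE 0.207, edgeR adjusted p = 0.0422), and the means of the mouse labels were 130 and 163 CPM in Young and 76.2 and 113 CPM in Old. Summed per mouse the difference was −0.707 (edgeR adjusted p = 0.553), and the adjusted p was 0.0993 with a correlation within mice (limma). Without Old1_2 it was −0.299 (edgeR adjusted p = 0.903) and without Old3 −0.876 (0.0122). Old1_2 held 11 of the 16 Old oocytes, and without it 0 of all 21271 genes were called. The loss of the Mtor call there therefore cannot place the call in that label. Without either Young mouse label, none of the 9 genes was called.

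Eif4ebp1 measured 0, 1.202 and 8.487 CPM in Young and 0.4598, 3.608 and 17.3 CPM in Old oocytes, medians of 2.5 and 8.5 counts. Its log2 difference was 1.41 (SE 0.442, edgeR adjusted p = 0.0444), with 1.38 (0.553) in sums per mouse and an adjusted p of 0.126 with a correlation within mice (limma). Without Old1_2 it was 0.511 (edgeR adjusted p = 0.944). The mean level in oocytes as a share of that in cumulus pools was 6.02% in Young, 8.49% in Middle, 18.4% in Old and 5.53% in CR mice, beside mean cumulus marker shares of 2.83%, 4.55%, 6.81% and 3.16%. In the second set it was 2.38% to 4.97%, beside 0.794% to 1.09%. Both shares were highest in Old oocytes, and the part of cumulus RNA in the Eif4ebp1 difference was not tested.

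Deptor was at −0.425 (SE 0.15, edgeR adjusted p = 0.0669) from Young to Old oocytes, Rictor at −0.448 (SE 0.229, 0.202) and Rps6kb1 at 0.306 (SE 0.148, 0.175). In DESeq2 Deptor was called (−0.427, adjusted p = 0.0266). Rptor, Tsc1, Tsc2 and Rheb lay between −0.304 and −0.0107. The median of the 9 genes was −0.302 beside 0.113 for all genes. From Middle to Old oocytes no gene was called, against 0.0% of all genes, although 4 had an unadjusted p below 0.05. These were Deptor (−0.369, edgeR adjusted p = 0.123), Mtor (−0.55, 0.138), Rictor (−0.502, 0.16) and Eif4ebp1 (0.968, 0.217). Without mouse Old3, which leaves only the label Old1_2 in Old, the first 3 were called, beside 2400 of all 22758 genes tested.

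**Figure D4:**
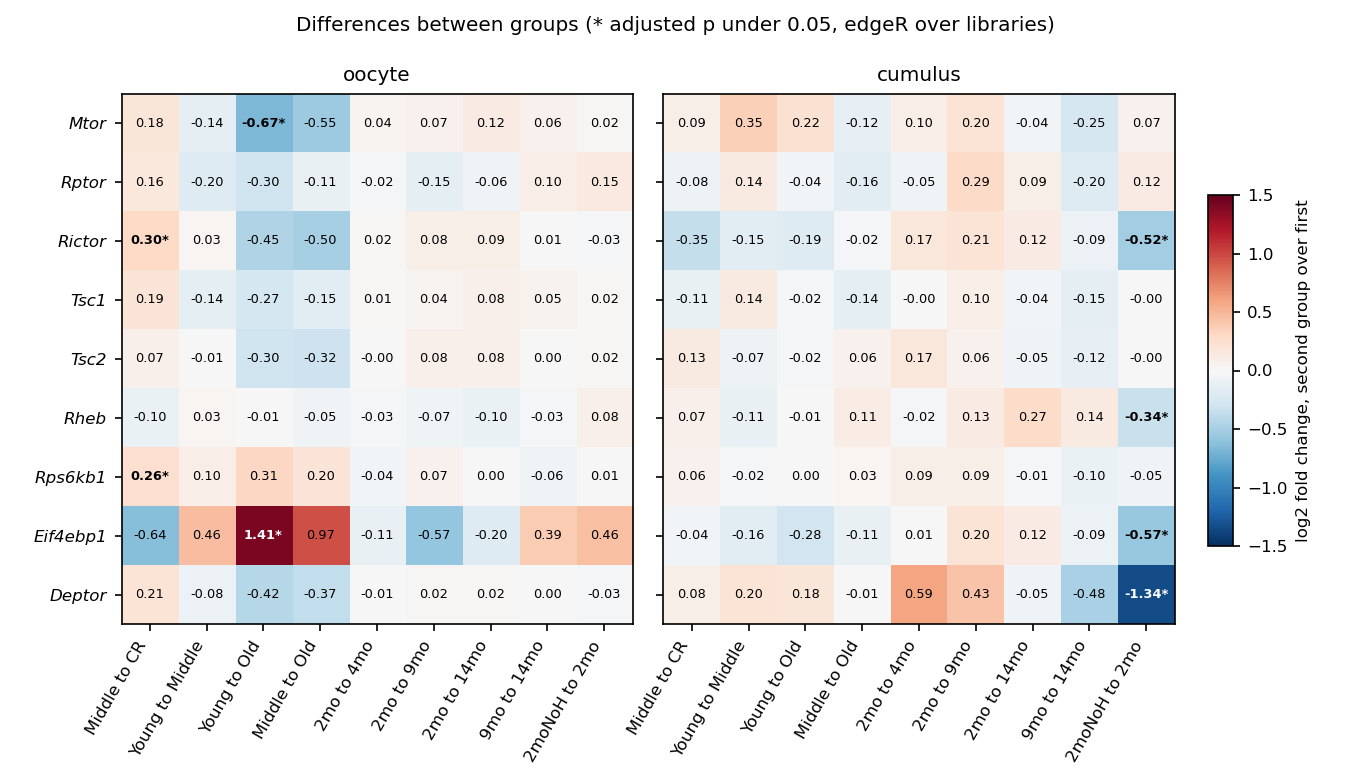
Log2 difference of each gene (rows) in each comparison within a cell type (columns), oocytes and cumulus pools in separate panels, with values printed in the cells and an asterisk on called genes. Calls stand only in Middle to CR oocytes, Young to Old oocytes and 2moNoH to 2mo cumulus pools.

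The second set, with 4 or more mice per group, gave no call by age in oocytes. Against 2mo oocytes, none of the 9 was called at 4mo (0.0126% of all genes, lowest edgeR adjusted p among the 9 = 0.961), at 9mo (0.16%, 0.465) or at 14mo (1.14%, 0.479), and none from 9mo to 14mo (0.0136%, 0.839). An unadjusted p below 0.05 was seen once in these 4 comparisons, at 9mo. Mtor, called in Old oocytes of the first set, measured 84.21, 127.9 and 173.5 CPM at 2mo and 101.5, 133 and 192.1 CPM at 14mo, which overlapped almost fully. Its log2 difference was 0.122 (95% interval −0.0245 to 0.268), and that of Rictor was 0.0872 (−0.0125 to 0.187). Whether these differences depart from those between Young and Old oocytes was not tested.

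In cumulus pools no age comparison called any of the 9 genes. From Young, 1.46% of all genes were called at Middle and 3.96% at Old, and 0.0433% from Middle to Old. The gene nearest to a call was Mtor from Young to Middle, with 55.47, 76.33 and 141.4 CPM in Young and 67.29, 98.92 and 178.3 CPM in Middle pools (log2 0.352, SE 0.127, edgeR adjusted p = 0.163). From 2mo, 0.519% of all genes were called at 4mo, 1.92% at 9mo and 1.7% at 14mo, and 0.143% from 9mo to 14mo. The nearest were Deptor at 4mo (0.586, edgeR adjusted p = 0.169), Rptor at 9mo (0.287, 0.163) and Rheb at 14mo (0.27, 0.136). At 9mo all 9 genes lay above 0, against 54.4% of all genes, at a median of 0.2 beside 0.0372 for all genes. From 9mo to 14mo 8 of 9 lay below 0, at −0.119 beside −0.0336, while 45% of all genes lay above 0. Both comparisons use the same 9mo pools, so they are not independent. Unadjusted p below 0.05 were found for 0 to 2 of the 9 genes in each of these 7 comparisons.

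Among the 62 other pathway genes tested, 3 were higher and 9 lower from Young to Old oocytes (19.4%, against 7.39% of all genes). Ddit4, a stress-induced inhibitor of the pathway, fell from 108 ± 30.1 to 63.1 ± 22.4 CPM (log2 −0.787, edgeR adjusted p = 0.0153), the autophagy kinase gene Ulk1 changed by −0.861 and Fnip2 by −0.958, while Eif4e, the cap-binding factor held by 4E-BP1, changed by 0.506 and Wdr59 by 1.01. None of the 12 was called in sums per mouse. From Young to Old cumulus pools (12.9% called, against 3.96% of all genes) 1 was higher, Wdr59 (0.354, and 0.305 at Middle), and 7 were lower, led by Prkab2 (−0.744), Sesn2 (−0.727), a leucine sensor, and Pdcd4 (−0.519), an S6 kinase target. Sesn2 was also lower in the second set, from 2mo to 4mo (−0.533, edgeR adjusted p = 0.0483) and to 14mo (−0.968, 0.00536), as was Eif4ebp2 at 14mo (−0.327). None of these cumulus calls was made in sums per mouse. Flcn was the single call by age in second-set oocytes, at −0.229 from 2mo to 14mo (edgeR adjusted p = 0.0459, 0.218 in sums per mouse).

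Hyperovulation was examined at 2 months. In oocytes none of the 9 genes was called between 2moNoH and 2mo mice (lowest edgeR adjusted p = 0.747, no unadjusted p below 0.05), against 0.0299% of all genes. In cumulus pools Deptor, Rictor, Eif4ebp1 and Rheb fell with hyperovulation, 4 of 9 (44.4%) against 13.2% of all genes. With a correlation within mice, Deptor (limma adjusted p = 0.0299) and Rheb (0.0222) were called, and Rictor (0.0585) and Eif4ebp1 (0.105) were not. In sums per mouse, Deptor alone was called, 1 of 9 (11.1%) against 0.952% of all genes. The median over the 9 genes was −0.0529 and that over all genes −0.0423. The summed cumulus markers also differed, at 44.3%, 81% and 114% (lowest, median and highest) of their median over the set in 2moNoH pools and 75.2%, 113% and 127% in 2mo pools, and their part in these differences was not tested.

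Deptor, an oocyte-rich gene, measured 2.016, 52.3 and 123.5 CPM in 2moNoH and 6.46, 18.15 and 34.26 CPM in 2mo cumulus pools. The ranges overlapped at their low end, and all 24 pools of 2mo mice were below the 2moNoH median. Its log2 difference, 2mo over 2moNoH, was −1.34 (SE 0.203, edgeR adjusted p = 6.1e-06), and −1.3 in sums per mouse (edgeR adjusted p = 0.0105). The 5 means of 2mo mice (15.8 to 23.4 CPM) lay below all 8 means of 2moNoH mice (28.4 to 65.1 CPM). The summed oocyte markers were at medians of 0.0315% of the oocyte level in 2moNoH pools and 0.0203% in 2mo pools, with 3 and 5 of the 10 markers at 0 in every pool.

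Rheb measured 68.53, 106 and 147.8 CPM in 2moNoH and 56.85, 79.9 and 103.9 CPM in 2mo pools, of which all 24 were below the 2moNoH median (log2 −0.335, SE 0.0757, edgeR adjusted p = 0.00133, 0.329 in sums per mouse). Rictor measured 62.5, 141.9 and 235.7 CPM and 39.4, 102.4 and 150.5 CPM (−0.521, SE 0.127, edgeR adjusted p = 0.00282, 0.373 in sums per mouse). Eif4ebp1 measured 22.43, 47.68 and 121.8 CPM and 19.29, 33.03 and 53.47 CPM (−0.566, SE 0.145, edgeR adjusted p = 0.00467, 0.346 in sums per mouse). For both, 23 of 24 pools of 2mo mice lay below the 2moNoH median and the ranges overlapped. Without mouse 2mo34, the calls of Rictor (−0.366, edgeR adjusted p = 0.0931) and Eif4ebp1 (−0.459, 0.0906) were lost. With the plate as a covariate all 4 remained called, Deptor at −1.29. The kinase gene Mtor was at 0.0666 (95% interval −0.1 to 0.233) and Rptor at 0.119 (−0.0497 to 0.287). The TSC genes Tsc1 (−0.16 to 0.159) and Tsc2 (−0.169 to 0.164) and the target gene Rps6kb1 (−0.228 to 0.122) had intervals around 0 as well.

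**Figure D5:**
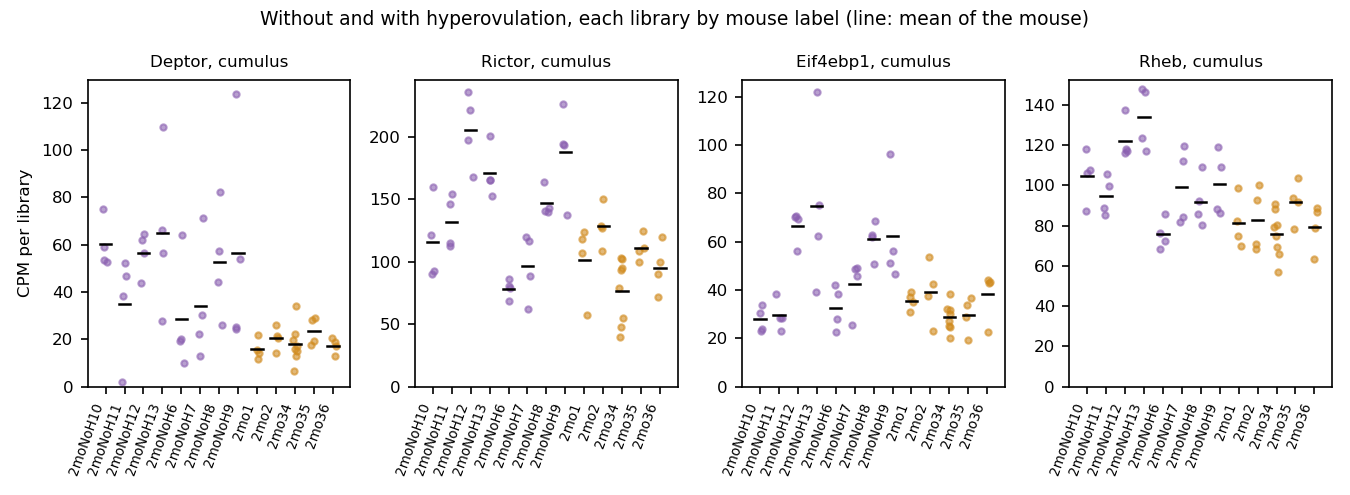
CPM per library (axes from 0) of Deptor, Rictor, Eif4ebp1 and Rheb in cumulus pools of 2moNoH and 2mo mice, split by mouse label, with a line at the mean of each mouse. For Deptor, the 5 means of 2mo mice (15.8 to 23.4 CPM) lie below the 8 means of 2moNoH mice (28.4 to 65.1 CPM).

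The response to hyperovulation was also tested between the cell types, as oocyte minus cumulus. It was called for 4 of the 9 genes (44.4%) against 4.05% of all genes, all more positive in oocytes, and for 1 of 9 in sums per mouse, against 0.2% of all genes. Deptor differed by 1.3 (SE 0.187, edgeR adjusted p = 5.22e-07, 0.00247 in sums per mouse). Eif4ebp1 differed by 1.02 (SE 0.314, edgeR adjusted p = 0.0423), Rictor by 0.488 (SE 0.13, 0.0128) and Rheb by 0.408 (SE 0.0937, 0.00276), none of which was called in sums per mouse (0.414 to 0.601). On the oocyte side Eif4ebp1 was near the floor, at median counts of 2 per 2moNoH and 4 per 2mo oocyte. It had no count in 4 of 32 2moNoH oocytes.

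Of the other 63 pathway genes, 1 was higher and 7 were lower in 2mo than in 2moNoH cumulus pools (12.7%, near the 13.2% of all genes). Ddit4, the stress-induced inhibitor, rose from 15.7 ± 12 to 33.5 ± 18 CPM (log2 1.09, edgeR adjusted p = 0.000446), and its relative Ddit4l fell from 43.5 ± 49.3 to 13.8 ± 13.9 CPM (−1.61, 0.00397). Prkab2 changed by −0.836 and Sesn2 by −0.721. None of these 4 was called in sums per mouse (edgeR adjusted p = 0.134 to 0.513). The response differed between the cell types for 5 of 63 (7.94%, against 4.05% of all genes) and for 0 in sums per mouse. It was more positive in oocytes for Prkab2 (0.992), Pdcd4 (0.56) and Flcn (0.545) and more negative for Ddit4 (−1.09) and Rraga (−0.386), a lysosomal GTPase of the amino acid arm.

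The genes whose group means followed those of Mtor most closely were also listed, by Pearson's r of mean log2(CPM + 1), centred within each set, over the 9 oocyte groups and over the 9 cumulus groups. Over oocyte groups they were Pecr (r = 0.9954), Pdcd11 (0.9945) and Cntn2 (0.9939) of 9565 genes, and over cumulus groups Abcc5 (0.975), Armt1 (0.9632) and Adat1 (0.9603) of 10496. The points share libraries, scaling and depth, so these values describe likeness of pattern alone.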

How the data were processed

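RNA of single oocytes and of cumulus pools was sequenced by RamDA-seq without molecular identifiers. The authors aligned reads with HISAT2 2.0.5 to GRCm38 and counted them per gene, multi-mapped reads included, with featureCounts 1.5.1. The deposited values are expected counts, and those not whole are taken here to come from sharing such reads. The deposited RPKM values were used only to recover gene lengths. Expected counts were rounded and tested over libraries with edgeR 4.0.16 (quasi-likelihood F test, TMM scaling, R 4.3.3) on genes with a count of at least 1 in at least 5 libraries, and called at a Benjamini-Hochberg adjusted p below 0.05. The genes, the lists of pathway and marker genes and the comparisons were chosen with earlier results of these data known. Of the 63 other pathway genes, those called with a mean of at least 8 CPM were named, at most 3 higher and 3 lower per comparison by size of change. Other called genes were counted only. A gene that this rule names in the comparison of the cell types is not reported here.

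An oocyte library of Middle3 that stood closer to cumulus pools was left out with its cumulus partner. Oocyte and cumulus libraries carry the label of their complex, which pairs them. The deviations of paired libraries from their group means had a median correlation of 0.0356 over 14 Middle pairs and 0.0221 over 24 2mo pairs. Alternatives were DESeq2 1.42.0, other filters, counts summed per mouse, limma 3.58.1 with a correlation within mice, thinning to equal depth, a correction for gene length, all deposited libraries, the plate, blocks, and each mouse left out (92 fits). Scripts were tested on simulated data. The 95% intervals are normal intervals from the standard errors and cover the spread between libraries.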

Additional observations from a re-analysis of the deposited data

Results flagged for a closer look

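The CR response of Rictor differed between the cell types, by 0.56 on the log2 scale (oocyte minus cumulus, SE 0.169, edgeR adjusted p = 0.0164), a call lost in sums per mouse (0.903, 0.454) and with the length correction (0.397, 0.0957). The response to hyperovulation differed between the cell types for Deptor (1.3), Eif4ebp1 (1.02, near the floor in oocytes), Rictor (0.488) and Rheb (0.408), each by the test of the difference itself, and for Deptor alone in sums per mouse.

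Among means per mouse, 4 of 108 groups held a mouse far from the rest. Chance alone picks about 1 in 20 groups, so this is no more than chance gives. Rptor was at 19.1 CPM in oocytes of mouse 2mo2, against 23.5 to 25.1 CPM in the other mice of its group. Rictor was at 252 CPM in oocytes of 2moNoH9, against 289 to 311 CPM. In 9mo cumulus pools, Tsc2 was at 118 CPM in mouse 9mo21, against 86.6 to 90.8 CPM, and Rheb was at 109 CPM in mouse 9mo24, against 78.6 to 83.7 CPM.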

How the results depend on the processing

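Over all the alternatives, values of the called genes kept their sign, with the call kept in 281 fits and lost in 40. The losses were uneven. Between the cell types, only the Tsc2 call in Middle mice was lost, in 1 fit. From Middle to CR oocytes, the Rictor call was kept in 12 fits and lost in 3, and the Rps6kb1 call was kept in 6 and lost in 9. From Young to Old oocytes, the Mtor call was kept in 5 and lost in 7, and the Eif4ebp1 call was kept in 4 and lost in 7. From Middle to CR oocytes, where 2 genes were called, DESeq2 and the correlation within mice each gave 1 (Rictor), the length correction 1 (Rheb, with both original calls lost), sums per mouse 0, and leaving out a mouse 1 to 3, while all deposited libraries gave Rictor and Eif4ebp1. Fits with all deposited libraries include the Middle3 oocyte library that stood closer to cumulus pools. From Young to Old oocytes (2), the correlation within mice, no filter on low counts, the block by complex number and sums per mouse each gave 0, and leaving out a mouse 0 to 3. The DESeq2 calls there included Deptor. From Middle to Old oocytes (0), leaving out a mouse gave 0 to 3, and from Middle to CR cumulus pools (0) it gave 0 to 1. From 2moNoH to 2mo cumulus pools (4), the correlation within mice gave 2, sums per mouse 1 and leaving out a mouse 2 to 4. For the CR response (1), all deposited libraries gave 2 (Rictor and Eif4ebp1) and sums per mouse 0, and the length correction called Rheb in place of Rictor, and for the hyperovulation response (4) sums per mouse gave 1 and thinning lost Eif4ebp1. The cause was not tested.

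Pairing oocytes and cumulus pools by complex as a block kept all 8 calls in Middle and all 8 in 2mo mice, with Mtor at 0.825 and 0.709. Complex numbers across ages only share a number: correlations had medians of −0.147 to 0.125, and 0 to 2 of 14 to 16 pairs correlated best with their own number. With that block, Mtor was at −0.718 (edgeR adjusted p = 0.0948) and Eif4ebp1 at 1.29 (0.115) from Young to Old oocytes.

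Over all genes, 7583 were called from Middle to CR oocytes and 2151 in sums per mouse. From Young to Old oocytes there were 1707, with 2808 in DESeq2, 238 with the correlation within mice, 101 with the block and 0 in sums per mouse, where leaving out Old1_2 gave 0 and leaving out Old3 4141. From 2moNoH to 2mo cumulus pools there were 3181, with 1271, 230 and, without 2mo34, 1516. Eif4ebp1 was too low to be tested with filterByExpr from Young to Old oocytes.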
